A study of Gallus gallus with 8 samples.

Results

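Gene expression of chicken keratinocytes grown as skin equivalents was compared with that of the same cell type grown as a monolayer that had not yet reached confluence. The comparison took 4 of the 8 libraries of the series: 3 skin equivalents and 1 library of subconfluent keratinocytes, chosen by their labels. All 4 were labelled as primary keratinocytes of Gallus gallus. A skin equivalent is a culture in 3 dimensions in which keratinocytes stratify and differentiate. The labels give no strain, age, medium or added agent for any group, and they name no bird or culture of origin. P-values therefore measure only how far these libraries spread, which can be a technical spread. The title of skin equivalent 1 carries the code 20, as does that of the subconfluent library, whereas skin equivalents 2 and 3 carry the codes 34 and 56 and the letters wo. A number marked d is 7 in the title of skin equivalent 1 and stands in none of the other 3. The sources used here do not explain these codes. The other libraries of the series, 3 confluent keratinocyte monolayers and 1 fibroblast culture, were on neither side of the comparison. They entered the fit to estimate the spread and served as reference points.

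The subconfluent state was represented by a single library, which has no replicate check. It was assumed to vary like the replicated groups, and emphasis was put on differences that were large and present in every skin equivalent. The subconfluent library held 36728801 gene counts, and skin equivalents 1 to 3 held 28792451, 27329706 and 27815090. Levels are in CPM, counts scaled to a common library total after each total was adjusted by a scaling factor (TMM). On this scale 3 counts corresponded to 0.0807 CPM in the subconfluent library and to 0.115 to 0.117 CPM in skin equivalents. Shares of gene counts use the unadjusted totals. Multimapping fragments, which the files list apart from the gene counts, made up 5.46% of the subconfluent library and 7.06% to 8.66% of the skin equivalents. Levels of near-identical members of a gene family, as among keratins or corneous beta-proteins, are uncertain for this reason. A keratinocyte marker was present in all 4 libraries, since Krt15, a keratin of basal keratinocytes, had 3804 CPM in the subconfluent library, 2711, 3429 and 2776 CPM in skin equivalents 1 to 3, and 0.0386 CPM in fibroblasts. As a check for fibroblast RNA, 9 features with at least 100 CPM in fibroblasts and at most 1 CPM in each confluent monolayer were summed. They reached 4380 CPM in fibroblasts, 3.82 CPM in the subconfluent library and 15.5, 66.8 and 28.3 CPM in skin equivalents 1 to 3. The median of the 9 was 0.269 CPM in the subconfluent library and 0.192, 1.56 and 0.959 CPM in skin equivalents 1 to 3. Over 1 CPM were 0 of the 9 in the subconfluent library and 2, 6 and 3 in skin equivalents, so few features carried the sum in skin equivalent 1. All 9 were tested, 1 was higher in skin equivalents (9.15% of all tested features were) and their median log2 fold change was 1.63, against 0.04 over all tested features. The part of fibroblast RNA in the results below was not tested.

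In the epidermis, keratinocytes divide in the basal layer, where they are anchored to the basement membrane and build filaments of basal keratins. Cells that leave this layer stop dividing, change their keratins and make proteins of the cornified layer, many of which are encoded in the epidermal differentiation complex (EDC), a gene cluster shared by birds, reptiles and mammals. Birds and reptiles also make corneous beta-proteins (CBP), small structural proteins known from scales, claws, beaks and feathers. Cultured keratinocytes spread over a dish before confluence, and can stratify when they are lifted to the air on a dermal substrate.

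Skin equivalents differed from subconfluent cells in many features. Named features that passed the large and consistent rule below, at a mean log2 CPM of at least 3, were ranked by log2 fold change. The 12 largest rises were those of Krt9L3, Krt9L4, loricrins and other EDC genes, and corneous beta-proteins. From 0 counts in the subconfluent library such a fold has only a lower bound, so its place in the order is uncertain. In such bulk libraries, fewer cells of a type and less RNA per cell cannot be told apart. A filter on low counts over all 8 libraries left 15019 features to be tested, some with almost no counts in the 4 libraries compared. The same filter over those 4 kept 14005. Over the 15019 the median log2 fold change was 0.04. Of them, 1374 (9.15%) were higher and 2000 (13.3%) lower in skin equivalents at an adjusted p under 0.05 (edgeR quasi-likelihood test, Benjamini-Hochberg adjustment). These counts depended on single libraries: 822 were higher and 1247 lower without skin equivalent 3, and 2071, 898 and 787 were higher without confluent monolayers 1, 2 and 3, which set only the spread. A difference was called large and consistent where it passed the test and every skin equivalent lay at least 4 times above, or at least 4 times below, the subconfluent library. By this rule 686 features (4.57%) were higher and 995 (6.62%) were lower, and between 537 and 778 and between 857 and 1104 were so in the fits without any one skin equivalent or confluent monolayer. Any 2 skin equivalents differed by 4 times or more in 603 to 964 tested features, and each skin equivalent differed from the subconfluent library by as much in 2959 to 3378.

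The features higher by this rule took 0.669% of gene counts in the subconfluent library and 17.1% to 20% in skin equivalents. Those lower took 10.4% of the subconfluent library and 0.656% to 0.994% of the skin equivalents. Both shares follow from the rule and are given as a description. The confluent monolayers were on neither side of the rule, but they entered the fit that gave its p-values. In them the first set took 1.24% to 1.42% and the second 8.51% to 9%. In the fibroblast library, which was in the same fit and also on neither side, they took 12.7% and 2.54%. Features with a name given by the authors made up 46 of the 686 and 7 of the 995, and 9.87% to 13% of gene counts in skin equivalents came from those 46. The named higher features took 0.00195% of the fibroblast library, and 1 of the 46, IL1RN, was at least 4 times higher there than in the subconfluent library. The remaining features carry Ensembl identifiers that the files do not pair with names. Of the 640 higher features without a name, 304 (47.5%) were at least 4 times higher in fibroblasts than in the subconfluent library, against 17.2% of all tested features. The 640 were themselves chosen for low levels in that same library. A low value there favours both conditions, so 47.5% against 17.2% is given as a description and does not measure fibroblast RNA. The shares below follow in part from the same choice. Those 304 took 12.3% of gene counts in fibroblasts, 0.108% in the subconfluent library and 2.05%, 2.21% and 2% in skin equivalents 1 to 3. The other 336 took 0.354%, 0.483% and 5.16%, 4.51% and 5.06%. The part of fibroblast RNA in these differences was not tested.

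**Figure D1:**
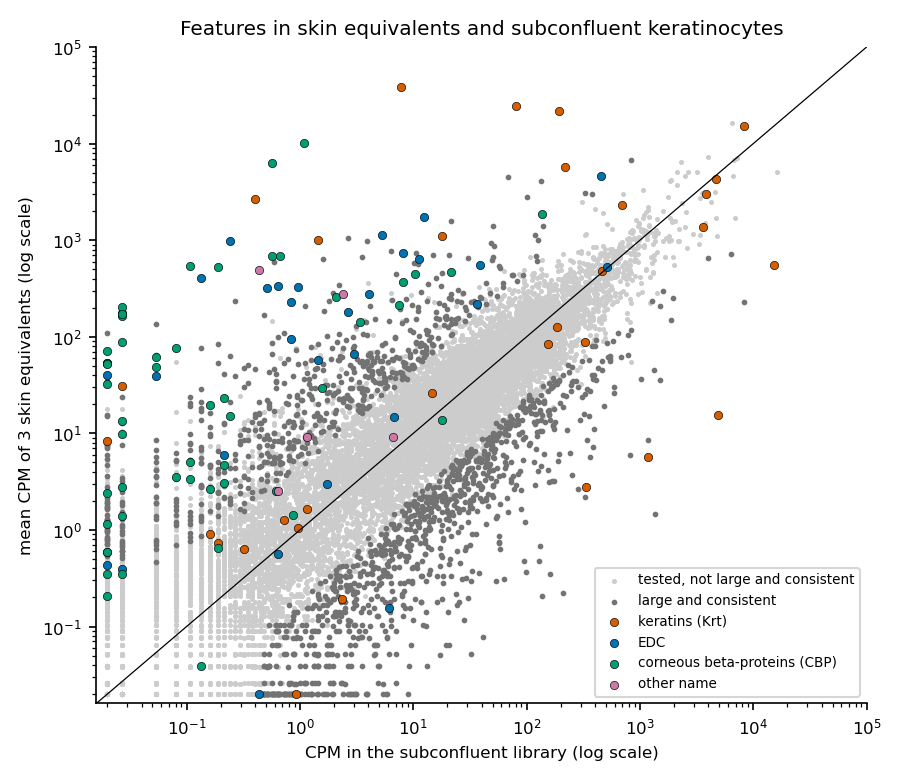
Mean CPM of 3 skin equivalents (vertical axis) against CPM of the subconfluent library (horizontal axis), both on log scales, with 1 point per tested feature (15019) and values under 0.02 drawn at 0.02; dark grey points are the 686 higher and 995 lower features called large and consistent, coloured points are features with author-given names, and the line marks equality. Most EDC and CBP points lie above the line, whereas keratins lie far above it, near it and far below it.

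Among keratins, the filament proteins of epithelial cells, some rose strongly and others fell strongly. All 32 named keratins together took 4.49% of gene counts in the subconfluent library (95% Wilson interval 4.49% to 4.5%, which covers counting error only) and 9.06%, 12.6% and 12.8% in skin equivalents 1 to 3. Of 31 tested keratins, 8 were higher (9.15% of all tested features were) and 7 lower (against 13.3%), with a median log2 fold change of 0.79. The 8 that rose all belonged to the Krt9L and Krt78L names, and the 7 that fell were Krt5L2, Krt5L3, Krt7, Krt18, Krt19, Krt80 and Krt84L. Only 2 of the 31 had at most 3 counts in the subconfluent library.

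The Krt9L genes are named after KRT9, a type I keratin. Their joint share was 0.0958% in the subconfluent library and 3.74%, 4.97% and 5.67% in skin equivalents 1 to 3. Of the 7 members, all tested, 5 rose (9.15% of all tested features did), and the median log2 fold change was 5.96 against 0.04 over all tested features. Krt9L3 had 7.83 CPM in the subconfluent library and 34342, 34916 and 46960.4 CPM in skin equivalents 1 to 3 (log2 fold change 12.27 ± 1.36, adjusted p = 0.00178). The 3 skin equivalents lay close together for this gene and far above the single subconfluent value. Krt9L4 had 0.404 CPM in the subconfluent library and 3015, 2087 and 2984 CPM in skin equivalents (log2 fold change 12.69 ± 0.92, adjusted p = 0.000458). Krt9L2, Krt9LC1 and Krt9LC2 also rose, from 17.9, 219.8 and 1.43 CPM to means of 1113, 5749 and 1015 CPM. For these 3 genes skin equivalent 1 was the lowest and skin equivalent 2 the highest of the group. Krt9LC2 no longer passed when skin equivalent 3 was left out (adjusted p = 0.0556), without a filter on low counts (0.0536) or among the 4 libraries compared alone (0.0636), and its log2 fold change of 9.47 became 8.44 when skin equivalent 2 was. Krt9L1 was already at 698.1 CPM in the subconfluent library, and skin equivalents had 746.9, 3905 and 2302 CPM (log2 fold change 1.73 ± 0.89, adjusted p = 0.197). Krt9LC3 had 0.969 CPM in the subconfluent library and 0.92, 1.09 and 1.15 CPM in skin equivalents.

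The Krt78L genes are named after KRT78, a type II keratin, the kind with which type I keratins pair in filaments. Their share was 0.076% in the subconfluent library and 3.4%, 4.8% and 4.88% in skin equivalents. Of the 8 members, all tested, 3 rose (9.15% of all tested features did), and the median log2 fold change was 3.91, or 3.83 with genes at 0 counts set to their bound. Krt78L3 had 81.4 CPM in the subconfluent library and 21914, 22861 and 29091 CPM in skin equivalents 1 to 3 (log2 fold change 8.24 ± 1.38, adjusted p = 0.00761). Krt78L2 had 191.4 CPM and then 15500, 26954 and 22794 CPM (log2 fold change 6.83 ± 1.28, adjusted p = 0.0114). In both, every skin equivalent exceeded the subconfluent library by far, with less than a 2-fold range among skin equivalents. Krt78LT had 0 counts in the subconfluent library and 3.37, 11.8 and 9.78 CPM in skin equivalents, at least 103-fold higher against a floor of 3 counts in the subconfluent library (adjusted p = 0.00997). The other 5 did not pass the test. Among them, Krt78L4 had 462.3 CPM in the subconfluent library, between the skin equivalent values of 35, 1284 and 122 CPM. Its log2 fold change of 0.06 turned to -2.56 without skin equivalent 2 and to -0.06 with scaling by total count. Krt78LC1 was at 1 count in the subconfluent library and rested on skin equivalent 2, with 0.115, 92 and 0.576 CPM in skin equivalents (adjusted p = 0.179).

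The basal-type keratins split. Krt5L1, a type II keratin named after KRT5, had 8313 CPM in the subconfluent library and 12822, 19067 and 14238 CPM in skin equivalents (log2 fold change 0.89 ± 0.69, adjusted p = 0.377), and Krt14L1, a type I keratin named after KRT14, had 4642 CPM and 3997, 4021 and 4980.0 CPM (log2 fold change -0.10 ± 0.34, adjusted p = 0.855). For Krt14L1 the subconfluent value lay inside the range of skin equivalents. For Krt15, whose levels are given above, the log2 fold change was -0.36 ± 0.34 (adjusted p = 0.472). Krt14L2 was lower in every skin equivalent, at 989.7, 1749 and 1360 CPM against 3587 CPM, and narrowly missed the threshold (log2 fold change -1.39 ± 0.42, adjusted p = 0.0521). It passed without skin equivalent 2 (adjusted p = 0.0492), without confluent monolayer 1 (0.0303), with scaling by total count (0.0439) and with DESeq2 (0.0163). By contrast, Krt5L2 fell from 15309.7 CPM to 331, 1255 and 91.7 CPM (log2 fold change -4.78 ± 1.04, adjusted p = 0.0185), and Krt5L3 fell from 4849.8 CPM to 3.37, 41 and 2.42 CPM (log2 fold change -8.28 ± 1.43, adjusted p = 0.00853). In both, skin equivalent 2 kept the highest level. Without it the log2 fold changes were -6.18 and -10.71, and Krt5L2 no longer passed without skin equivalent 1 (adjusted p = 0.0576) or in a fit of the 4 libraries compared alone (0.0588). The last of the 4 Krt5L names had 0 counts in all 4 libraries and was not tested. As a group, Krt5L names took 2.88% of gene counts in the subconfluent library and 1.19%, 1.91% and 1.34% in skin equivalents.

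Among the other keratins, 5 of 11 fell (13.3% of all tested features did), the rest did not pass the test, and each of the 11 had at least 6 counts before confluence. Krt7, Krt18 and Krt19, known from simple epithelia, were among the 5 and Krt8 was not. Krt7, a type II keratin of simple and glandular epithelia, had 1187 CPM in the subconfluent library and 5.82, 7.11 and 4.22 CPM in skin equivalents (log2 fold change -7.70 ± 0.44, adjusted p = 0.000311). Krt19, a type I keratin of simple epithelia, had 333.4 CPM and then 2.22, 5.2 and 0.921 CPM (log2 fold change -6.90 ± 0.74, adjusted p = 0.00166; -7.72 without skin equivalent 2). For both genes every skin equivalent lay below the single subconfluent value, as was the case for 5950 of 15019 tested features. Krt80 fell from 324.2 CPM to 79.5, 98.7 and 85.8 CPM (log2 fold change -1.88 ± 0.27, adjusted p = 0.00415), less than 4-fold in the skin equivalent nearest to the subconfluent library. Krt18, the type I partner of Krt8, fell from 2.37 CPM to 0.46, 0.0391 and 0.0767 CPM (log2 fold change -3.59 ± 0.92, adjusted p = 0.0319). It no longer passed without skin equivalent 3 (adjusted p = 0.0812) or without confluent monolayer 2 (0.0588) or 3 (0.0625), nor among the 4 libraries compared alone (0.0908), and its log2 fold change was -5.25 without skin equivalent 1. Krt84L, at 0.915 CPM, had 0 counts in all skin equivalents, at least 7.9-fold lower against a mean floor of 3 counts per skin equivalent (adjusted p = 0.0252). Krt84L no longer passed without skin equivalent 3 (adjusted p = 0.0528) or in the fit of the 4 libraries compared alone (0.0608). Krt8 itself had 154.9 CPM in the subconfluent library and 93.8, 86.6 and 73.1 CPM in skin equivalents and did not pass (log2 fold change -0.87 ± 0.49, adjusted p = 0.228), but was called without confluent monolayer 1 (adjusted p = 0.043). Krt12, Krt20, Krt23 and Krt222 were not called.

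**Figure D2:**
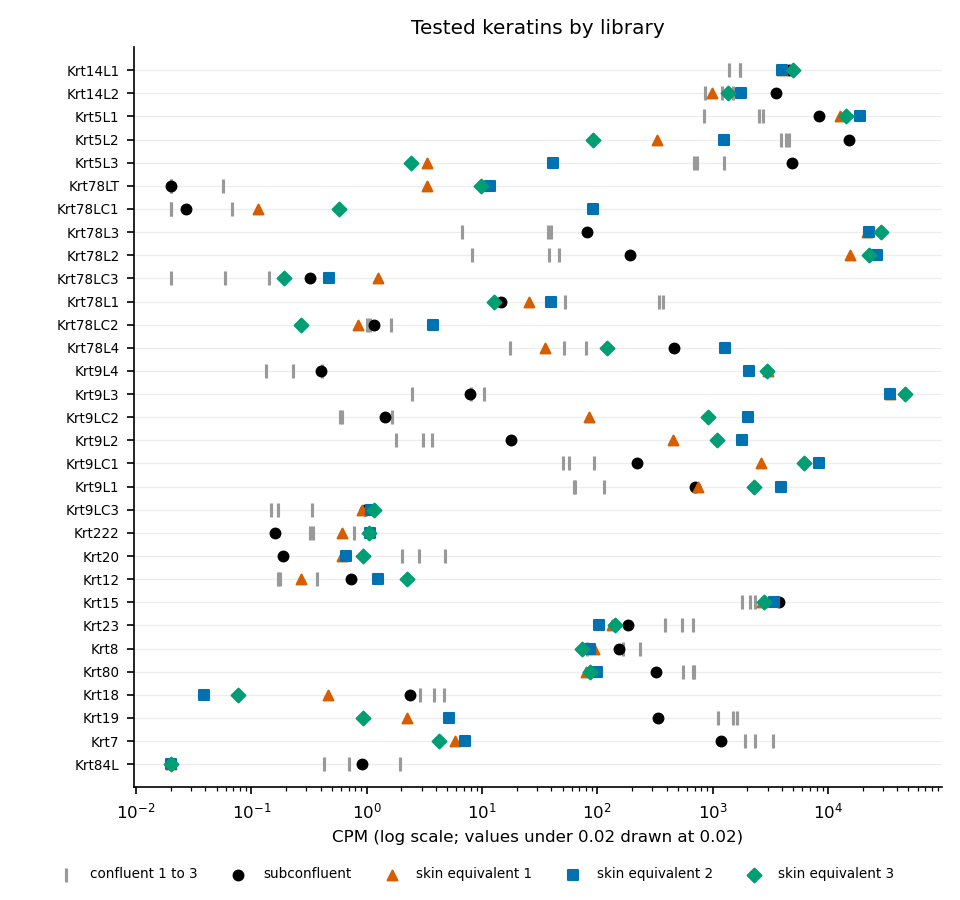
CPM of the 31 tested keratins (rows, grouped by name) on a log scale in the subconfluent library (black circle) and in skin equivalents 1 to 3 (triangle, square, diamond), with the 3 confluent monolayers as grey ticks and values under 0.02 drawn at 0.02. Krt9L3, Krt9L4, Krt78L2 and Krt78L3 sit far to the right in skin equivalents, and Krt7, Krt19, Krt5L2 and Krt5L3 far to the left.

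EDC genes were raised as a group in number and in share of counts. The 35 names ending in -EDC took 0.113% of gene counts in the subconfluent library and 2.04%, 0.682% and 1.03% in skin equivalents 1 to 3. Of 31 tested, 18 rose and 1 fell, against 9.15% and 13.3% of all tested features, and the 18 rises were all large and consistent. The median log2 fold change of the 31 was 6.1, or 5.82 with genes at 0 counts set to their bound. Of the 31, 6 had at most 3 counts in the subconfluent library, so only a rise could be called for them. The 4 untested names had at most 12 counts in any of the 4 libraries.

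The loricrin genes encode glycine-rich main proteins of the cornified envelope. LOR1-EDC had 0.242 CPM in the subconfluent library and 945.9, 719.4 and 1282 CPM in skin equivalents 1 to 3 (log2 fold change 11.96 ± 0.71, adjusted p = 0.000313). LOR2-EDC had 0.135 CPM and then 962.9, 94.8 and 169 CPM (log2 fold change 11.53 ± 2.14, adjusted p = 0.0109; 9.89 without skin equivalent 1). LOR3-EDC had 0.511 CPM and then 670.5, 105.5 and 175.1 CPM (log2 fold change 9.26 ± 2.37, adjusted p = 0.0319). LOR3-EDC no longer passed when skin equivalent 3 was left out (adjusted p = 0.0586) or without a filter on low counts (0.0642), and its log2 fold change was 8.09 without skin equivalent 1. All 3 genes were far above the subconfluent library in every skin equivalent, and skin equivalent 1 stood out for LOR2-EDC and LOR3-EDC.

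The EDQM genes rose together. EDQM1-EDC, EDQM2-EDC and EDQM3-EDC had 0.969, 0.646 and 1.43 CPM in the subconfluent library and means of 329.8 ± 164.5, 336.9 ± 217.7 and 57.4 ± 26.6 CPM (SD, n = 3) in skin equivalents, with log2 fold changes of 8.41, 9.02 and 5.33. So did the EDCH genes: EDCH1-EDC to EDCH4-EDC had 0.834, 4.04, 8.07 and 12.5 CPM in the subconfluent library and reached 437.2, 543.6, 1263 and 3579 CPM in skin equivalent 1, but only 127.4 to 129, 137.4 to 149.8, 427.8 to 499 and 813.8 to 848.1 CPM in skin equivalents 2 and 3. Without skin equivalent 1 the log2 fold changes of EDQM2-EDC and of the 4 EDCH genes were 8.36, 7.26, 5.15, 5.84 and 6.06, in place of 9.02, 8.11, 6.1, 6.5 and 7.13. EDWM-EDC was also highest in skin equivalent 1, going from 5.33 CPM to 2259, 573.9 and 566.9 CPM (log2 fold change 7.73 ± 1.52, adjusted p = 0.0133; 6.74 without skin equivalent 1). EDGH-EDC and EDYM1-EDC had 0 counts in the subconfluent library. EDGH-EDC had 125.8, 19.9 and 15.2 CPM in skin equivalents, at least 664-fold higher, or at least 218-fold without skin equivalent 1 (adjusted p = 0.0149 over all libraries). EDYM1-EDC had 29, 72.8 and 18 CPM, at least 495-fold higher, or at least 291-fold without skin equivalent 2 (adjusted p = 0.0109 over all libraries). EDQrep-EDC had 11.2 CPM and then 1417, 265 and 222.7 CPM (log2 fold change 5.82 ± 1.46, adjusted p = 0.0299; 4.44 without skin equivalent 1), and EDYM2-EDC 2.99 CPM and then 125.5, 30.9 and 41.1 CPM (4.46 ± 0.98, adjusted p = 0.0192; 3.59 without skin equivalent 1). EDbeta-EDC and LOC107055127-EDC were highest in skin equivalent 2 instead, with 155.9, 319.9 and 70.8 CPM against 2.66 CPM and 34.3, 73.2 and 9.05 CPM against 2 counts. Their log2 fold changes were 6.09 ± 1.15 and 9.39 ± 1.72 (adjusted p = 0.0115 and 0.0105), or 5.41 and 8.55 without skin equivalent 2. EDGH-EDC and LOC107055127-EDC did not pass in limma-voom (adjusted p = 0.0786 and 0.0722), nor EDQrep-EDC and EDYM2-EDC in the fit of the 4 libraries compared alone (0.0699 and 0.0541). The smallest rise called in the group was that of EDKMb-EDC, from 36.3 CPM to 269.8, 159.3 and 223.3 CPM (log2 fold change 2.58 ± 0.38, adjusted p = 0.00462).

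Some EDC genes were not called, among them EDPE-EDC and EDQL-EDC, which were already abundant before confluence. EDPE-EDC had 515.1 CPM in the subconfluent library and 578.9, 430 and 585.3 CPM in skin equivalents, so the subconfluent value lay inside their range (log2 fold change 0.04 ± 0.77, adjusted p = 0.976). EDQL-EDC had 455.1 CPM and then 6398, 2141 and 5266 CPM. Every skin equivalent was over 4 times higher, but the test narrowly missed the threshold (log2 fold change 3.34 ± 1.06, adjusted p = 0.0599). EDQL-EDC was called without skin equivalent 2 (adjusted p = 0.047), without confluent monolayer 1 (0.0238) and in a fit of only the 4 libraries compared (0.0484). EDPQ1-EDC had 38.7 CPM and then 1233, 265.5 and 179.6 CPM (adjusted p = 0.0661), and EDP3-EDC 0.834 CPM and then 254.8, 12.8 and 19 CPM (adjusted p = 0.0655). For EDPQ1-EDC and EDP3-EDC skin equivalent 1 alone was several times above the other two. Without it both were called, at lower log2 fold changes of 2.52 and 4.24 (adjusted p = 0.0247 and 0.00727).

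Cornulin and scaffoldin are S100 fused-type proteins, large EDC proteins with an S100 domain at one end. CRNN-EDC, named after cornulin, was the EDC feature that fell, from 6.05 CPM to 0.192, 0.117 and 0.153 CPM (log2 fold change -5.26 ± 0.67, adjusted p = 0.00284). The skin equivalents lay near the floor of 3 counts, and the call held in all 16 alternative fits, with log2 fold changes of -5.44 to -4.72. SCFN-EDC, named after scaffoldin, had 0.431 CPM in the subconfluent library and 0 counts in all 3 skin equivalents, at least 3.72-fold lower. It missed the threshold in edgeR (adjusted p = 0.107) and passed in limma-voom (0.0428).

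**Figure D3:**
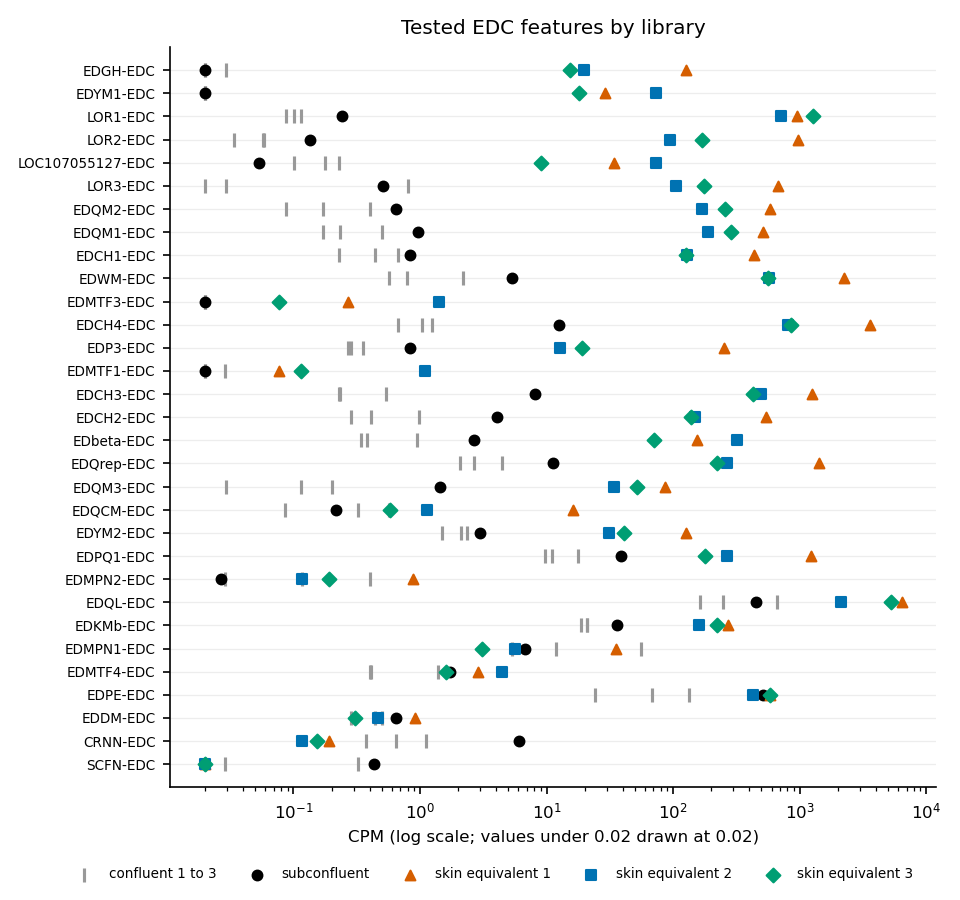
CPM of the 31 tested EDC features (rows, ordered by log2 fold change) on a log scale in the subconfluent library (black circle) and in skin equivalents 1 to 3 (triangle, square, diamond), with the 3 confluent monolayers as grey ticks and values under 0.02 drawn at 0.02. LOR1-EDC moves from 0.242 CPM to 719.4 CPM or more, EDPE-EDC overlaps between groups, and CRNN-EDC lies left of the subconfluent library in every skin equivalent.

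Corneous beta-proteins ending in -K, 15 in number and all tested, took 0.0185% of gene counts in the subconfluent library and 1.45%, 1.95% and 2.2% in skin equivalents. Of these, 6 rose (9.15% of all tested features did). Whether or not they passed the test, 12 were at least 4 times higher in every skin equivalent (6.15% of all tested features were). In the subconfluent library 4 of the 15 had at most 3 counts. CBP63-K had 1.08 CPM in the subconfluent library and 8764, 8093 and 13417 CPM in skin equivalents 1 to 3 (log2 fold change 13.19 ± 1.32, adjusted p = 0.00131). CBP62-K had 0.565 CPM and then 5756, 6919 and 6402 CPM (log2 fold change 13.45 ± 1.28, adjusted p = 0.00108). Skin equivalents were close to each other for both. CBP65-K had 1 count in the subconfluent library and 82.2, 261.8 and 264.9 CPM in skin equivalents, a 7530-fold ratio with a 95% counting interval of 1350 to 297000 (adjusted p = 0.0055). CBP56-K was already at 137.1 CPM before confluence and rose to 894.4, 2630.1 and 2128 CPM (log2 fold change 3.78 ± 0.84, adjusted p = 0.0198). CBP58-K and CBP66-K rose as well, with log2 fold changes of 4.81 and 5.40. CBP15-K, at 8.07 CPM before confluence, had 66.5, 880.6 and 163.6 CPM in skin equivalents and missed the threshold (adjusted p = 0.0595), but passed without skin equivalent 1 (0.0343) or 2 (0.0287). CBP37-K and CBP38-K had 1 count each before confluence and were by far highest in skin equivalent 2, at 482.4 and 522.1 CPM. Skin equivalents 1 and 3 had 0.881 and 9.48 CPM for CBP37-K and 0.996 and 9.55 CPM for CBP38-K. Both genes were at least 4 times higher in every skin equivalent but were not called (adjusted p = 0.118 and 0.114). Without skin equivalent 2, CBP38-K passed at a log2 fold change of 7.41 in place of 12.48 (adjusted p = 0.0491).

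Names ending in -C rose in 10 of 14 cases (9.15% of all tested features did), and all 14 were at least 4 times higher in every skin equivalent (6.15% of all tested features were). The subconfluent library held only 113 counts over all 14, and 10 of them had at most 3 counts there, so only rises could be called for those. Skin equivalent 2 was highest for every one. CBP11-C, the one with most counts before confluence, had 2.1 CPM and then 163.4, 499.6 and 113.1 CPM (log2 fold change 6.94 ± 1.46, adjusted p = 0.0167; 6.04 without skin equivalent 2). CBP6-C had 0 counts and then 15.2, 126.5 and 14.8 CPM, at least 646-fold higher, or at least 186-fold without skin equivalent 2 (adjusted p = 0.0183 over all libraries). CBP5-C had 1 count and then 43.1, 406 and 60.9 CPM, a 6260-fold ratio with a counting interval of 1120 to 247000 (adjusted p = 0.0169). CBP3-C and CBP4-C, at 0 counts before confluence, were at least 885-fold and 666-fold higher, or 194-fold and 133-fold without skin equivalent 2. They did not pass the test (adjusted p = 0.0563 and 0.0654), but did without skin equivalent 2 (0.00882 and 0.0117). Of the 10 calls, that of CBP2-C no longer held without confluent monolayer 3 (adjusted p = 0.059), that of CBP7-C without confluent monolayer 1 (0.0555), that of CBP10-C without skin equivalent 1 (0.0659) or 3 (0.0534) or confluent monolayer 3 (0.0532), and that of CBP13-C without any one of the 3 skin equivalents (0.0562, 0.0502 and 0.056) or confluent monolayer 2 (0.0515) or 3 (0.0739). Limma-voom ended 8 of the 10 calls, CBP5-C (adjusted p = 0.0804) and CBP6-C (0.0938) among them, and a fit of the 4 libraries compared alone ended 6, with CBP6-C at 0.0585. A fit without a filter on low counts ended 4 of the 10, and one with a term for the wo mark of the titles ended 3.

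Names ending in -S had 470 counts in the subconfluent library (0.00128% of gene counts) and 0.00705%, 0.761% and 0.0548% of gene counts in skin equivalents 1 to 3, so the 3 skin equivalents differed among themselves by far more than skin equivalent 1 differed from the subconfluent library. Of 18 tested out of 21, 9 had at most 3 counts in the subconfluent library. At least 4 times higher in every skin equivalent were 8 of the 18 (6.15% of all tested features were). In the test 1 was called as higher, against 9.15% of all tested features. That one, CBP52L-S, had 0.108 CPM in the subconfluent library and 17.5, 1460 and 125.3 CPM in skin equivalents (log2 fold change 12.22 ± 3.57, adjusted p = 0.0478). The feature no longer passed without skin equivalent 3 (adjusted p = 0.0654) or without confluent monolayer 1, 2 or 3 (0.0667, 0.0682 and 0.0715), and its log2 fold change became 9.32 without skin equivalent 2. Limma-voom (adjusted p = 0.236) and the fit of the 4 libraries compared alone (0.103) did not call it. CBP54-S and CBP53-S reached similar levels, at 10.2, 1464 and 123.5 CPM and 18, 1898 and 148.9 CPM, and missed the threshold (adjusted p = 0.0608 and 0.0624), but passed without skin equivalent 1 (0.0229 and 0.0249) or 2 (0.0349 and 0.0281). CBP55-S was at 10.3 CPM in the subconfluent library, above the 8.01 CPM of skin equivalent 1 and below the 1256 and 61.2 CPM of skin equivalents 2 and 3. This gene alone held 383 of the 470 -S counts in the subconfluent library. Among the 20 names with the suffix -F, 3 could be tested and 0 passed in either direction in edgeR, also at an unadjusted p under 0.05 (0). CBP17-F had 17.8 CPM in the subconfluent library and 11.5, 12.7 and 16.7 CPM in skin equivalents (log2 fold change -0.38 ± 0.85, adjusted p = 0.772). None of the 50 tested corneous beta-proteins was lower in skin equivalents in the edgeR test (13.3% of all tested features were), in DESeq2 (0) or in limma-voom (0). At an unadjusted p under 0.05 in edgeR, 0 were lower, where 38.1% of all tested features passed in either direction. However, 23 of the 50 had at most 3 counts in the subconfluent library, so only a rise could be called for those. The number called as higher, 17 in all, was 30 with DESeq2 and 10 with limma-voom. Over all tested features 1374 were higher in edgeR, 2282 with DESeq2 and 1469 with limma-voom.

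**Figure D4:**
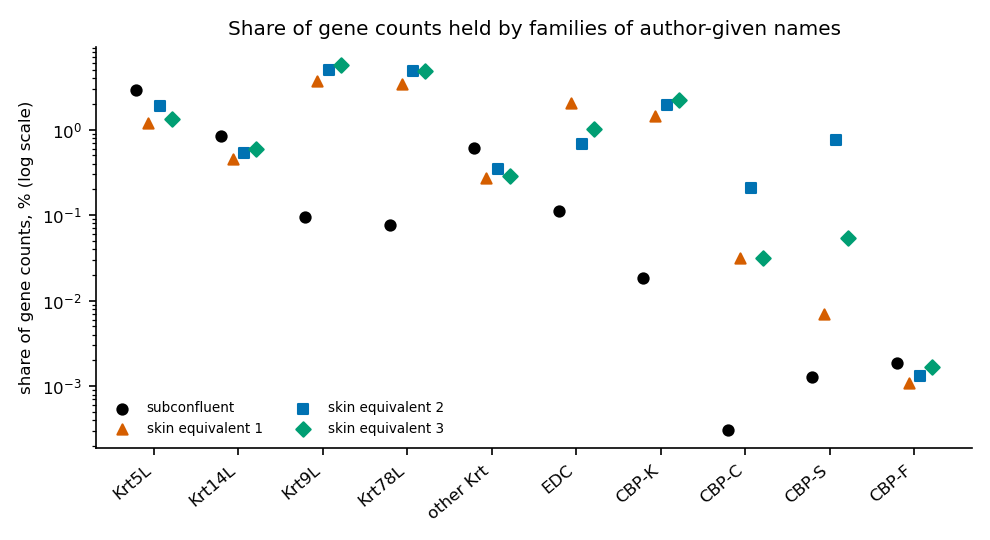
Share of gene counts (%, log scale) held by each family of author-given names in the subconfluent library (black circle) and in skin equivalents 1 to 3 (triangle, square, diamond). Krt9L, Krt78L, EDC and CBP-K lie far higher in every skin equivalent, Krt5L and Krt14L lie somewhat lower, and CBP-S spreads from 0.00705% to 0.761% among skin equivalents.

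Of 6 further author-given names, 5 were tested. Of the 5, 3 rose and 0 fell, against 9.15% and 13.3% of all tested features. At an unadjusted p under 0.05 in edgeR, 0 were lower, where 38.1% of all tested features passed in either direction. With only 5 features, 0 falls carry little weight. EPPKL1, named after epiplakin, a plakin-family protein that binds keratin filaments, had 0.431 CPM in the subconfluent library and 500.4, 647.2 and 341.4 CPM in skin equivalents (log2 fold change 10.16 ± 0.79, adjusted p = 0.000559). IL36RN, whose namesake blocks the interleukin-36 receptor, had 2.39 CPM and then 306.7, 384.5 and 133.9 CPM (log2 fold change 6.84 ± 1.71, adjusted p = 0.0295). IL36RN no longer passed when skin equivalent 1 was left out (adjusted p = 0.0563) or without a filter on low counts (0.0581). IL1RN, whose namesake blocks the interleukin-1 receptor, had 1.16 CPM and then 12.3, 9.3 and 6.06 CPM (log2 fold change 2.99 ± 0.80, adjusted p = 0.0367). IL1RN no longer passed without any one of skin equivalents 1, 2 and 3 (adjusted p = 0.0653, 0.0583 and 0.0512) or without confluent monolayer 2 (0.054). IL1RN was also at 10.6 CPM in fibroblasts and IL36RN at 8.08 CPM.

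Among features without a name, 640 were higher and 988 were lower by the large and consistent rule. ENSGALG00000023787 and ENSGALG00000010828 had 0 counts in the subconfluent library and 14.6, 258 and 54.1 CPM and 40.8, 57.5 and 15.7 CPM in skin equivalents. They were at least 1350-fold and 471-fold higher, with adjusted p of 0.0192 and 0.00822, and the first bound was 426-fold without skin equivalent 2. ENSGALG00000023787 did not pass in limma-voom (adjusted p = 0.127) or in the fit of the 4 libraries compared alone (0.0588). ENSGALG00000005802 fell from 32.6 CPM to at most 2 counts in a skin equivalent (log2 fold change -9.20 ± 0.74, adjusted p = 0.000629), and ENSGALG00000009069 fell from 41.3 CPM to at most 3 counts (log2 fold change -8.99 ± 0.77, adjusted p = 0.000797). Only 8 features, 4 of them named, had 0 counts in the subconfluent library and at least 10 CPM in every skin equivalent. No feature (0) had at least 10 CPM in the subconfluent library and 0 counts in all skin equivalents. These 2 counts are not alike, since a fall had to reach 0 counts in every skin equivalent and a rise had to start from 0 in a single library. Whatever their level on the other side, 191 of the 995 lower features had at most 3 counts in each skin equivalent. Of the 686 higher ones, 113 had at most 3 counts in the subconfluent library.

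The 3 skin equivalents did not show the same profile of late differentiation genes. Among 25 tested EDC features with a mean of at least 1 CPM in skin equivalents, 19 were highest in skin equivalent 1, whereas of 15 CBP -K features 9 were highest in skin equivalent 2, 5 in skin equivalent 3 and 1 in skin equivalent 1. Of 14 CBP -C and 14 CBP -S features, 14 and 14 were highest in skin equivalent 2. With each feature centred on its mean over the 3 libraries on the log2(CPM + 0.02) scale, the median of EDC features was 1.18, -0.64 and -0.67 in skin equivalents 1 to 3, and that of -S features was -2.33, 2.78 and -0.97. These are 1 library each, and no test was made. Skin equivalent 2 also had the highest summed level of the 9 fibroblast features, 66.8 CPM, and kept more Krt5L2 and Krt5L3 than the other two. Skin equivalent 1, whose title code matches that of the subconfluent library, was thus the one with the largest EDC difference from subconfluent cells (2.04% against 0.113% of gene counts) and the smallest -S difference (0.00705% against 0.00128%). Most of that subconfluent -S share, 383 of 470 counts, came from CBP55-S.

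**Figure D5:**
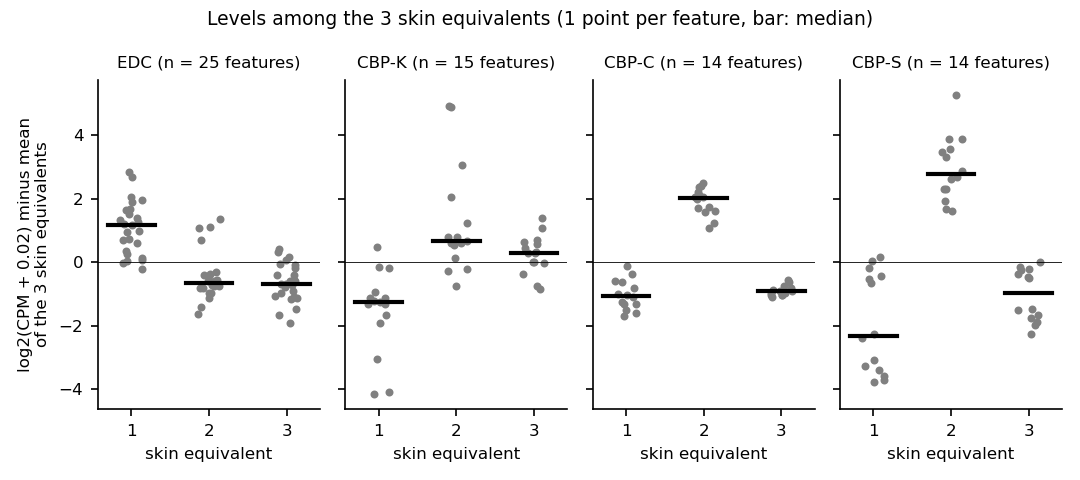
Level of each feature with a mean of at least 1 CPM in skin equivalents, as log2(CPM + 0.02) minus its mean over the 3 skin equivalents, for EDC (25 features), CBP-K (15), CBP-C (14) and CBP-S (14); points are features with random horizontal offset and bars are medians. EDC medians are 1.18, -0.64 and -0.67 in skin equivalents 1 to 3, and CBP-S medians are -2.33, 2.78 and -0.97.

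Confluent monolayers were also tested against subconfluent cells in the same fit. This comparison shares the subconfluent library, so values are given side by side. In it 109 features (0.726%) were higher and 91 (0.606%) lower over all tested features, and of the 117 named features tested 0 were higher and 2 lower, with 6 and 24 at an unadjusted p under 0.05 (23.4% of all tested features in either direction) and 5 and 16 called by DESeq2. The 2 were EDCH3-EDC, from 8.07 CPM to 0.539, 0.234 and 0.229 CPM in confluent monolayers 1 to 3 (log2 fold change -4.60 ± 0.67, adjusted p = 0.039), and CBP58-K, from 7.51 CPM to 0.337, 0.176 and 0.0573 CPM (log2 fold change -5.31 ± 0.84, adjusted p = 0.041). None of the named features (0) was called as lower without skin equivalent 2 or 3 or without confluent monolayer 2 or 3, whereas 7 were lower and 2 higher without confluent monolayer 1. How many of all tested features DESeq2 and these fits called at confluence was not counted.

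Several features that did not pass the test between skin equivalents and subconfluent cells had lower levels at confluence in each monolayer, and others had higher levels. How common either was over all tested features was not counted. EDPE-EDC had 24, 133.3 and 68.1 CPM in confluent monolayers against 515.1 CPM before confluence (log2 fold change -2.78 ± 0.70, adjusted p = 0.0823). Krt5L1 had 841.5, 2741 and 2516 CPM against 8313 CPM (log2 fold change -2.03 ± 0.60, adjusted p = 0.109), Krt14L1 had 1380.1, 1729 and 1732 CPM against 4642 CPM (-1.52 ± 0.32, adjusted p = 0.0648), and Krt9L1 had 63.9, 113.5 and 62.7 CPM against 698.1 CPM (-3.12 ± 0.72, adjusted p = 0.0709). None of these 4 differences between confluent and subconfluent cells passed the test. Krt78L1, at 14.6 CPM before confluence and 25.7, 39.9 and 12.8 CPM in skin equivalents, had 52.7, 374.6 and 341.3 CPM in confluent monolayers (log2 fold change 4.13 against subconfluent cells, adjusted p = 0.12). Krt20 rose from 0.188 CPM to 4.75, 2.84 and 2.03 CPM in confluent monolayers (log2 fold change 4.06 ± 0.84, adjusted p = 0.0634). Krt23 rose from 186.1 CPM to 679.7, 387 and 544.7 CPM (1.53 ± 0.41, adjusted p = 0.0929). These differences at confluence did not pass the test either. CRNN-EDC had 1.11, 0.645 and 0.372 CPM at confluence, between the subconfluent level and that of skin equivalents (log2 fold change -3.09 ± 0.62, adjusted p = 0.0588). Krt7 and Krt19 had 1915 to 3336 CPM and 1116 to 1638 CPM at confluence, above the 1187 and 333.4 CPM of the subconfluent library in every monolayer, with adjusted p of 0.213 and 0.199 for that difference.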

How the data were processed

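RNA was isolated with Trizol and sequenced as poly(A)-selected, strand-preserving libraries with paired reads on a NextSeq500, per the labels' protocols. The authors deposited whole-number counts per feature without normalisation. DESeq2 1.22.2, RSEM, bcl2fastq 2.19.1.403 and STAR 2.6.1a are listed by the submitters' processing notes, which assign no step to any of them. Genome build, annotation and strand setting were not given in the sources used here. Overlapping and antisense genes are therefore uncertain. The 4 rows of fragments given to no gene were dropped before scaling and testing. From 64.5% to 70.2% of the fragments of the 4 libraries compared were given to a gene.

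All 8 libraries were fitted in 1 model with 4 groups in R 4.3.3, with edgeR 4.0.16 and its quasi-likelihood test (robust dispersion, TMM scaling, default expression filter, Benjamini-Hochberg adjustment over 15019 features at 0.05). Where a log2 fold change is followed by ±, the value after it is the standard error. It was obtained by dividing the log2 fold change by the square root of the F statistic. A difference was large and consistent where it passed and every skin equivalent lay at least 4-fold away from the subconfluent library, with values under 3 counts raised to that floor. The share of all keratins in the subconfluent library carries a Wilson interval, and ratios at 1 to 3 counts exact 95% counting intervals. As no molecular identifiers were used, these intervals and floors describe counting error alone. On simulated counts for 15019 features, the fit called 42 of 48 features lowered and 37 of 44 raised by 4 on the log2 scale, and 17 of 57 and 11 of 51 at 2, and 9 of 14819 unchanged ones. In this simulation no feature with a mean level near the floor was changed, and far fewer features were changed than were called in the data. The lone library was drawn with the same spread as the others, so the simulation cannot check that assumption. The rates hold for these settings only, and even there weaker differences were often missed.

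Members, families and lists were chosen with earlier results of these data known. Of 13 lists of gene symbols, 3 had a match among the author-given names: the EDC list with 27 of 41 symbols, a list of interleukins and defence with 2 of 16 and a basal layer list with 1 of 16. The other 10 lists, on the cell cycle, ribosome biogenesis, desmosomes and junctions, cornification enzymes, barrier lipids and 5 other cell types, had 0 matches and were not analysed here. Features were named by rule, namely the 12 largest rises and the largest falls (4 qualified) at a mean log2 CPM no lower than 3, the 2 largest changes of each family or list, 15 features chosen by symbol, and 2 rises and 2 falls without a name. Other named features complete the description of a family and were chosen after their values were seen. Alternatives were other scalings, filters, tools and sets of libraries, and fits without 1 library.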

Additional observations from a re-analysis of the deposited data

How the results depend on the processing

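Large and consistent differences kept within 1.5 times of 686 and 995 under every refit, and changed with the fold required: 1236 and 1787 at 2-fold, 372 and 456 at 8-fold, and 1649 and 1729 for skin equivalent 1 alone, with no test. All calls together were 2282 higher with DESeq2 and 893 with the title code as a replicate block, and ranged from 787 to 2071 higher and from 1247 to 2623 lower over fits without 1 library. Over all features the median log2 fold change, 0.04, was -0.07 with scaling by total count, with 1171 higher and 2274 lower. No paired analysis was possible for this comparison alone because the groups share 1 code. Between same-numbered skin equivalents and confluent monolayers, deviations from group means correlated at -0.04, -0.11 and 0.15. Differently numbered ones correlated at -0.2 to 0.17. With 3 libraries in each of these groups, such values cannot show or exclude a shared origin. The codes were not treated as pairs in the reported fit, and what they mark stays unknown. The block, fitted over the 7 keratinocyte libraries, gave 497 large rises and 775 large falls. It lost 6 calls of named features (CBP56-K, CBP58-K, CBP13-C, Krt9LC2, Krt18 and Krt84L, adjusted p = 0.0667, 0.0741, 0.083, 0.0546, 0.108 and 0.0699) and gained 11. A term for the wo mark over the same 7 libraries lost 5 (CBP9-C, CBP10-C, CBP13-C, CBP52L-S and Krt18, adjusted p = 0.0563, 0.0811, 0.0831, 0.0703 and 0.0623) and gained 7.

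Counts of corneous beta-proteins called higher were 30 with DESeq2, 10 with limma-voom and 11 among the 4 libraries compared, in place of 17. Over all tested features 2282, 1469 and 1063 were higher in these fits, in place of 1374. EDC features called lower were 2 with limma-voom, and keratins called lower 4 among the 4 libraries. Over all tested features 2086 and 1492 were lower in these fits, in place of 2000. Named features called at confluence against subconfluent cells were 5 higher and 16 lower with DESeq2, 3 and 11 with a term for the wo mark, 1 lower with limma-voom, 0 lower with the replicate block, and 0 to 2 higher and 0 to 7 lower over fits without 1 library. The calls over all tested features at confluence were not counted for these settings.

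Of 1903 alternative values of 121 features, 1740 kept their direction and side of the threshold, 71 lost and 70 gained a call (12 and 5 with limma-voom, 14 and 2 among the 4 libraries compared), and 22 changed sign, all of features that did not pass in the reported test. EDPE-EDC had log2 fold changes of -0.08 (total count), -0.42 (block), -0.43 (title mark), -0.02 (without skin equivalent 1) and -0.03 (without 3), and ranged from -0.03 to 0.18 over fits without 1 library. Krt78L4 had -0.06 (total count), -1.39 (limma-voom), -3.17 (block), -2.71 (title mark) and -2.56 (without skin equivalent 2; -2.56 to 0.60 over fits without 1 library). Krt78LC2 had -0.26 (limma-voom), -0.13 (block) and -1.05 (without skin equivalent 2, the lowest of the fits without 1 library). EDDM-EDC had 0.17 (block and title mark) and 0.10 (without skin equivalent 3; -0.73 to 0.10). CBP17-F had 0.46 (block and title mark), WASF2-L -0.10 (both), CBP61-K -0.30 (without skin equivalent 3; -0.30 to 1.16) and EDMPN1-EDC -0.64 (without skin equivalent 1; -0.64 to 1.61), but was called higher with the block (2.28, adjusted p = 0.0184) and the title mark (2.27, 0.0473). The cause was not tested. Below the floor of 3 counts (0.0807 CPM in the subconfluent library), falls were not detectable at this depth.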
